A study of Mus musculus with 10 samples.

Results

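Interferon-stimulated genes are the genes that a cell switches on when it senses an interferon. The set described here holds 35 of them, taken from a fixed list of symbols (Isg15, the Ifit, Oas and Mx families, RNA sensors, transcription factors and other effectors) among the 55414 gene identifiers counted. All 35 symbols were found, and all 35 passed the filter on low counts. They were measured by RNA sequencing of bulk jejunum, a segment of small intestine, in 10 libraries of male C57BL/6J mice homozygous for floxed RetSat (RetSat flox/flox). RetSat encodes retinol saturase, an enzyme of vitamin A metabolism. The 5 control libraries lacked villin-Cre-ERT2 and the 5 RetSat ko libraries carried it. Both groups were given tamoxifen over 5 days and then ate a high-fat diet (60 kcal% fat) for 14 weeks, and no source used here gives the age of the mice. The villin promoter drives the recombinase in the intestinal epithelium, so RetSat is removed there and not in immune or stromal cells, and the presence of active Cre and the loss of RetSat cannot be told apart. The comparison asks whether jejunal expression of these genes differed between the genotypes, and how far the libraries of each group differed among themselves.

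Type I interferons (alpha and beta) and type III interferons (lambda) bind receptors that activate the kinases JAK1 and TYK2. Their signal leads to the complex ISGF3, which contains STAT2 and IRF9 and binds the interferon-stimulated response element, ISRE, in the promoters of target genes. In the gut, epithelial cells are known for their response to interferon lambda and underlying immune cells for theirs to type I interferons. Interferon gamma, made mainly by T cells and NK cells, acts through the GAS element and induces a partly separate set of genes, such as the guanylate-binding proteins.

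The promoters of the members are shown first, because the ISRE is what many interferon-stimulated genes have in common and the member list did not use it. Sequences came from RefSeq (build GRCm38.p6, which is older than the GRCm39 build of the counts), matched by symbol, for 27 of the 35 members. Oas2, Mx1, Mx2, Usp18, Zbp1, Dhx58, Rtp4 and Parp14 were not among them. The ISRE core was searched as GAAA, any 2 bases and GAAA again, or as its reverse complement (TTTC, any 2 bases, TTTC), in the 250 bases before the start site, and 14 of the 27 members (51.9%) held at least 1 match, against 3.46% of the 27025 genes with such windows. The GAS core TTCNNNGAA, which reads the same on both strands, was found for 3 of 27 members (11.1%; Bst2, Ifit2 and Oas1a), against 8.13% of all genes, and it overlapped an ISRE match only in Bst2. The stretches below run 5′ to 3′ on the strand of the gene, with ISRE matches in capitals. They were chosen to show overlapping matches (Isg15, Bst2), paired matches (Ifit1, Ddx60) and gene pairs that share their promoter letters (Ifit3 with Ifit3b, Oas1a with Oas1g).
Isg15, chr4:156200860-156200911, minus strand: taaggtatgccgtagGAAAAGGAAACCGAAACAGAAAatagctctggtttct
Ifit1, chr19:34640770-34640828, plus strand: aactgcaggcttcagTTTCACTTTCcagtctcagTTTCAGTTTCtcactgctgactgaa
Ifit3, chr19:34583358-34583431, plus strand: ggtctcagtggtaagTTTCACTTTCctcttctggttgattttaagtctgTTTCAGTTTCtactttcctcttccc
Ifit3b, chr19:34607754-34607827, plus strand: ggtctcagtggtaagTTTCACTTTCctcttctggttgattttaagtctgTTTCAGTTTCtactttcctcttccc
Oas1a, chr5:120907526-120907560, minus strand: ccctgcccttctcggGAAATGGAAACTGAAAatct
Oas1g, chr5:120887614-120887646, minus strand: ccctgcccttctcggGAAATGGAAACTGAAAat
Ddx60, chr8:61928019-61928086, plus strand: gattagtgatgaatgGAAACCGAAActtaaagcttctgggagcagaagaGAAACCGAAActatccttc
Bst2, chr8:71537572-71537617, minus strand: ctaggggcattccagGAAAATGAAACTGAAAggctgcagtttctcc

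The Ifit3 and Ifit3b stretches were identical over 74 bases, and the Oas1a stretch began with the 33 bases of the Oas1g stretch. The other members with a match were Ifit1bl1, Oas3, Rsad2, Stat2, Cxcl10 and Trim30a. A match is a run of letters and not a measured binding site, and a window without one says nothing about the factor.

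In the RNA counts, no member passed the threshold between the genotypes, and the variation among libraries of the same genotype was large. In edgeR's quasi-likelihood test with adjustment over all 18654 tested genes, 0 of 35 members had an adjusted p under 0.05 (adjusted p from 0.291 to 0.999), where 0.0322% of all tested genes did. At an unadjusted p under 0.05 there were 3 members, Ddx58, Irf9 and Samd9l, which is 8.57% of the list, against 12.2% of all tested genes and 5.45% when only lower genes are counted. DESeq2 called 1 member, Ddx58 (adjusted p = 0.0366), where it called 0.659% of all tested genes, and limma-voom called 0. All 35 members had a lower mean in RetSat ko, with log2 fold changes from -0.90 for Usp18 to -0.0008 for Bst2 and a median of -0.44, while 46.1% of all tested genes were negative and their median was 0.02. Bst2 stood so close to 0 that its sign turned with upper-quartile factors and with limma-voom (0.02 and 0.03). No member had all RetSat ko libraries on 1 side of all control libraries. Among all tested genes the groups of 2.31% were separate (0.729% with RetSat ko lower), a share too small for 0 of 35 to be a contrast. The 35 genes vary together, as shown next, so their common sign is not 35 separate observations.

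**Figure D1:**
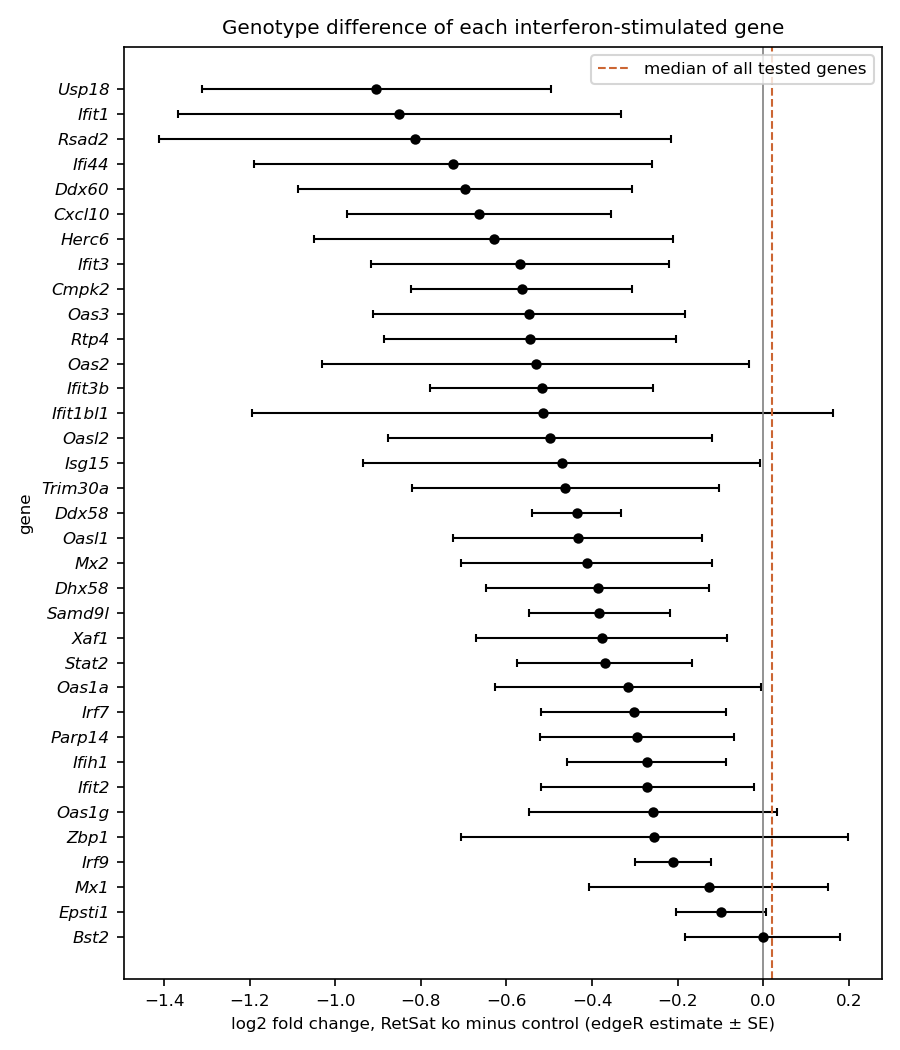
Log2 fold change (RetSat ko minus control, horizontal axis) of each of the 35 interferon-stimulated genes (rows), as edgeR's estimate with its SE (bars), with the median of all tested genes (0.02) as a dashed line. Every point lies at or left of 0, from -0.90 for Usp18 to -0.0008 for Bst2, and no gene had an adjusted p under 0.05.

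Libraries are comparable in depth, with 102844680 to 128730695 counts each, and the 35 members had 134 to 30567 counts per library, so that counting error is small beside the spread between libraries. Levels are given as CPM, counts per 1000000 of the TMM-adjusted library total. Retsat itself was at 340 to 576 CPM in the control libraries and at 15.4 to 33.4 CPM in the RetSat ko libraries, with a log2 fold change of -4.49 ± 0.277 (SE, edgeR adjusted p = 0.000101). Markers of enterocytes and the proximal regional gene Gata4 (172 to 228 CPM) were present in all libraries, and the ileal genes Slc10a2 and Fabp6 were at no more than 2.13 and 0.300 CPM. Pancreatic acinar transcripts were high in control 4, control 5, RetSat ko 1 and RetSat ko 2, and B cell transcripts in control 4, RetSat ko 2 and RetSat ko 3. Without the former 4 libraries the median of the members was -0.53, and without the latter 3 it was -0.35, with 0 of 35 members called by edgeR in either fit. Smooth muscle markers summed to 158 CPM in control 3, against up to 568 CPM in control and 396 to 718 CPM in RetSat ko. Adipocyte markers, averaged on the log2 scale relative to the mean of all libraries, were highest in RetSat ko 5 (2.85), RetSat ko 4 (2.34), RetSat ko 3 (1.96) and control 3 (1.49). The relation of such tissue content to the members was not tested. Since this is bulk tissue, fewer cells of a type and less RNA per cell cannot be told apart.

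The order of the libraries was nearly the same from gene to gene. In control, control 2 and control 4 were the 2 highest libraries for 33 of the 35 members, and control 3 was the lowest for 29. In RetSat ko, RetSat ko 1 was the highest for 27 members and RetSat ko 5 the lowest for 27, and RetSat ko 1 and RetSat ko 3 made up the highest pair for 30. Averaged over the 35 genes, the log2 level relative to the mean of all libraries was 0.85 in control 2, 0.69 in control 4 and 0.26 in control 1, against -0.18 in control 5 and -0.64 in control 3. In RetSat ko it was 0.34 in RetSat ko 1 and 0.12 in RetSat ko 3, against -0.36, -0.41 and -0.66 in RetSat ko 2, 4 and 5. The control libraries thus reached both higher and nearly as low as the RetSat ko libraries, and the highest of all 10 was a control library for every member (control 2 for 23, control 4 for 11 and control 1 for 1).

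**Figure D2:**
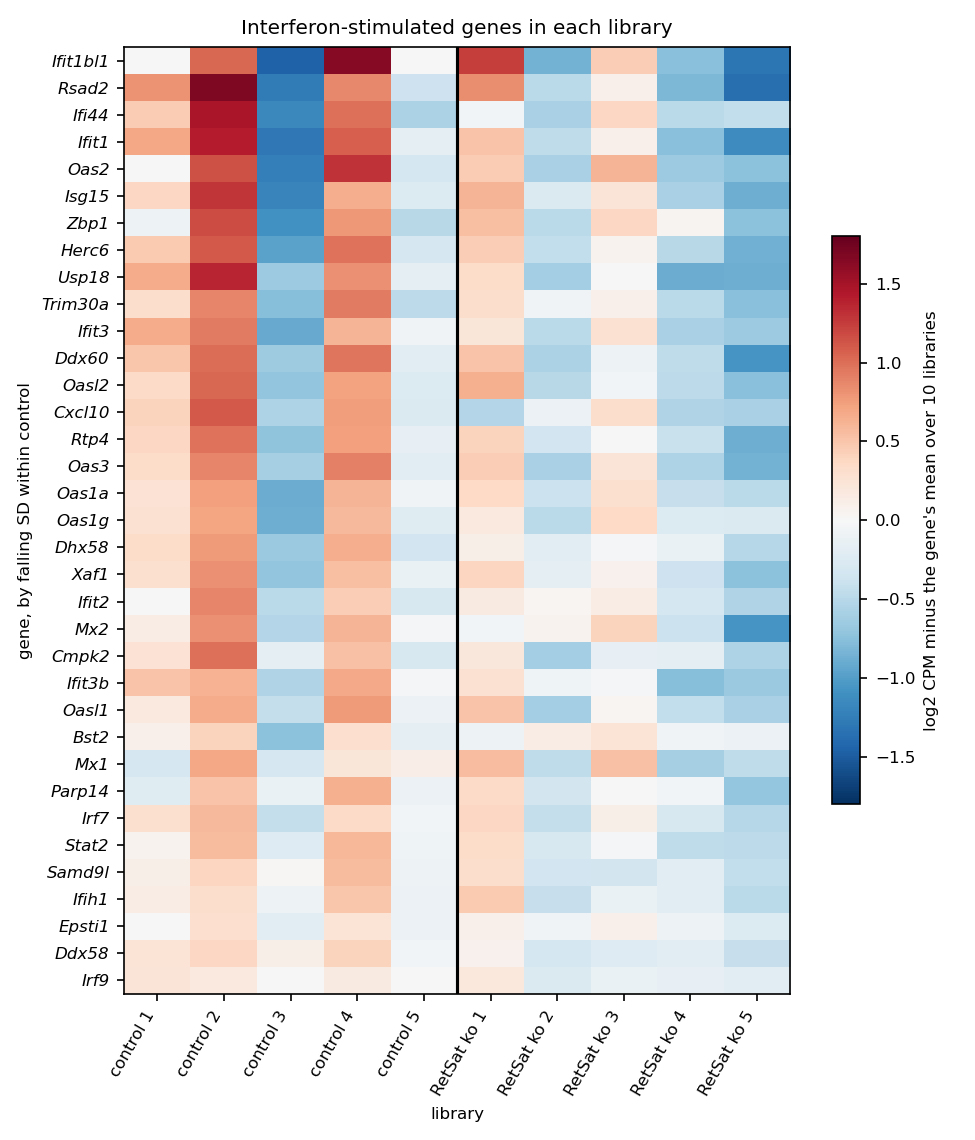
Colour gives the log2 CPM of each of the 35 genes (rows, ordered by falling SD within control) in each library (columns, control left and RetSat ko right of the line), minus the mean of the gene over the 10 libraries. Control 2 and control 4 are red in nearly every row and control 3 is blue in most, RetSat ko 1 is red in most and RetSat ko 5 is blue.

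This spread was wider than that of most genes. The SD of log2 CPM within control had a median of 0.65 over the members, against 0.206 over all tested genes and 0.145 over the 13227 genes averaging at least 1 CPM. Within RetSat ko the medians were 0.434, 0.237 and 0.176. An SD above the median of all tested genes was found for 33 members in control and 30 in RetSat ko. The highest control library held at least 2 times the lowest for 27 members and at least 4 times for 9, and in RetSat ko these numbers were 19 and 2. In 30 of 35 members the SD was larger in control than in RetSat ko, where 43.1% of all tested genes had the larger SD in control. That difference in spread between the groups was not tested. Without control 3 the median SD within control was 0.49, and without RetSat ko 1 that within RetSat ko was 0.36.

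**Figure D3:**
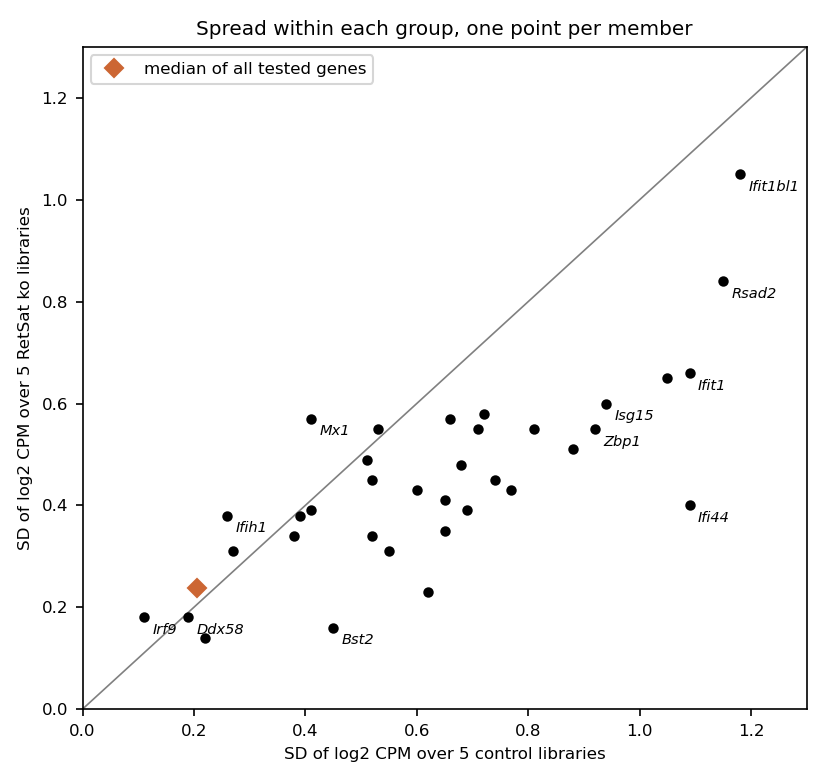
SD of log2 CPM over the 5 control libraries (horizontal axis) against the SD over the 5 RetSat ko libraries (vertical axis), with 1 point per member, equal values on the grey line and the median of all tested genes as a diamond. Of the 35 points, 30 lie below the line, with Ifit1bl1 (1.18 and 1.05) and Rsad2 (1.15 and 0.84) at the upper end and Irf9 (0.11 and 0.18) at the lower.

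Isg15 encodes a ubiquitin-like protein that is conjugated to other proteins, and Usp18 encodes the protease that removes it and also blocks the type I interferon receptor. Isg15 (ENSMUSG00000035692.8, chromosome 4, 156283912 to 156285253, GRCm39) was the most abundant member per length, at 83.5 CPM per kilobase over all libraries. Its level was 67.3, 126, 22.7, 81.4 and 43.5 CPM in control 1 to 5 and 79.4, 43.2, 60.6, 34.7 and 28.3 CPM in RetSat ko 1 to 5. The highest and lowest values were both in control, and the log2 fold change of -0.47 ± 0.464 (SE) was about as large as its error (edgeR adjusted p = 0.712). Usp18 (chromosome 6, 121222865 to 121247876) had the most negative fold change of the list. It was at 25.4, 41.3, 10.2, 28.3 and 14.2 CPM in control and at 20.1, 10.5, 16.0, 8.65 and 8.70 CPM in RetSat ko. The means were 23.9 ± 12.3 and 12.8 ± 5.06 CPM (SD, n = 5 each). Control 3 and control 5 lay within the range of the RetSat ko libraries, and the log2 fold change of -0.90 ± 0.408 was not called (edgeR adjusted p = 0.415). Leaving out single libraries moved it between -1.12 and -0.61.

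The IFIT proteins bind foreign RNA and hinder its translation. The 5 Ifit members lie within 99.3 kb of chromosome 19 (34528094 to 34627409), and their log2 fold changes ran from -0.85 to -0.27. Ifit1 was at 116, 190, 29.3, 151 and 64.0 CPM in control and at 102, 51.9, 76.0, 42.4 and 32.5 CPM in RetSat ko. Control 3 was below every RetSat ko library and control 2 was 6.47 times as high as control 3. Its log2 fold change was -0.85 ± 0.518 (edgeR adjusted p = 0.535). Ifit1bl1, an Ifit1-like gene, had the widest spread of all members. It was at 68.1, 139, 24.6, 210 and 67.7 CPM in control and at 160, 37.4, 91.8, 40.0 and 27.4 CPM in RetSat ko. The highest library was thus 8.54 times the lowest in control and 5.84 times in RetSat ko, and the log2 fold change was -0.52 ± 0.679 (edgeR adjusted p = 0.789). Without the 3 libraries highest in B cell markers this fold change was 0.01. Ifit3 (24.3 ± 10.2 and 16.4 ± 5.29 CPM, SD, n = 5 each) and Ifit3b (4.33 ± 1.37 and 3.03 ± 0.909 CPM) had fold changes of -0.57 and -0.52. Their transcripts are 97.8% identical over 1700 bases, so the division of reads between them is uncertain, and with their counts summed the log2 fold change was -0.56 (edgeR adjusted p = 0.520). The means of Ifit2 were 6.92 ± 2.77 CPM (control) and 5.74 ± 1.15 CPM (RetSat ko).

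The OAS enzymes make a second messenger that activates an RNA-degrading enzyme once they bind double-stranded RNA, and the OAS-like proteins act in RNA sensing. Oas1a, Oas1g, Oas2 and Oas3 lie within 177 kb of chromosome 5, and Oasl1 and Oasl2 lie within 41 kb elsewhere on that chromosome. All 6 had negative log2 fold changes between -0.55 and -0.26 (edgeR adjusted p from 0.570 to 0.749). Oasl1 (chromosome 5, 115061299 to 115075974) was second to Isg15 in level, at 54.7 CPM per kilobase. Its values were 152, 213, 99.9, 229 and 125 CPM in control and 192, 87.6, 138, 98.8 and 89.9 CPM in RetSat ko. RetSat ko 1 exceeded 3 of the control libraries, and the log2 fold change was -0.43 ± 0.292 (edgeR adjusted p = 0.573). An exon of Oasl1 overlaps Gm13822 on the opposite strand, and counting without strand cannot separate their reads. Oas1a and Oas1g are 97.6% identical over 1861 bases, and their summed counts had a log2 fold change of -0.30 (edgeR adjusted p = 0.722). Oas2, the weakest of the 6 at 0.934 CPM per kilobase, ranged from 1.51 to 8.77 CPM in control and from 2.13 to 5.40 CPM in RetSat ko.

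The sensors of viral RNA included the gene with the smallest p. Ddx58 encodes RIG-I, Ifih1 encodes MDA5, Dhx58 encodes their regulator LGP2, and Ddx60 encodes a related helicase. Ddx58 (chromosome 4, 40203773 to 40239828) was at 74.8, 81.8, 68.1, 83.7 and 61.3 CPM in control and at 66.4, 50.9, 53.7, 54.9 and 47.4 CPM in RetSat ko. RetSat ko 2 to 5 were below every control library and RetSat ko 1 was above control 5. Its log2 fold change was -0.44 ± 0.105, with an unadjusted p of 0.00131 and an edgeR adjusted p of 0.291. Unlike Ifit1 or Isg15, Ddx58 had a within-group SD of only 0.19 in control and 0.18 in RetSat ko. Two-sided exact permutation tests of log2 CPM, run for all 35 members and not adjusted, gave p = 0.0159 for Ddx58 and p from 0.0635 to 0.873 for the other 34 (the smallest p that 5 against 5 samples allow is 0.00794). Ddx60 (-0.70 ± 0.390), Dhx58 (-0.39 ± 0.261) and Ifih1 (-0.27 ± 0.185) had edgeR adjusted p of 0.496, 0.572 and 0.572. Dhx58 shares exon positions with Dhx58os on the opposite strand.

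Among the transcription factors, IRF9 and STAT2 are the parts of ISGF3 that carry the type I and III response, and IRF7 amplifies the production of type I interferon. Irf9 (chromosome 14, 55841028 to 55847487) was at 60.1, 57.9, 51.0, 57.2 and 50.9 CPM in control and at 58.5, 42.8, 47.1, 46.5 and 44.5 CPM in RetSat ko. RetSat ko 1 stood at the level of the control libraries, while RetSat ko 2 to 5 were below all of them. The means were 55.4 ± 4.21 and 47.9 ± 6.20 CPM (SD, n = 5 each), with a log2 fold change of -0.21 ± 0.0889 (edgeR adjusted p = 0.372). Irf9 has an exon that overlaps Rnf31 on the same strand, so that some reads could belong to either gene. Irf7 (chromosome 7, 140842619 to 140846394), at 32.6 CPM per kilobase, was at 146, 179, 88.8, 151 and 115 CPM in control and at 155, 88.5, 128, 97.5 and 83.5 CPM in RetSat ko. Its groups overlapped widely (log2 fold change -0.30 ± 0.217, edgeR adjusted p = 0.594), and one of its exons overlaps Phrf1 on the opposite strand. Stat2 averaged 50.2 ± 13.3 CPM among control and 38.8 ± 9.65 CPM among RetSat ko libraries (-0.37 ± 0.205, edgeR adjusted p = 0.486).

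Of the 15 other effectors, Samd9l, an antiviral factor that blocks translation, had the smallest p. Samd9l (chromosome 6, 3372257 to 3399572) was at 91.8, 112, 86.4, 127 and 80.0 CPM in control and at 107, 67.3, 67.9, 75.1 and 63.2 CPM in RetSat ko. As with Irf9, RetSat ko 1 lay among the control libraries and the other RetSat ko libraries below them (log2 fold change -0.38 ± 0.165, edgeR adjusted p = 0.388). Cmpk2, a mitochondrial nucleotide kinase encoded beside Rsad2, was at 61.0, 101, 45.0, 73.3 and 41.7 CPM in control and at 58.9, 33.4, 45.9, 45.2 and 34.6 CPM in RetSat ko (-0.56 ± 0.258, edgeR adjusted p = 0.415). Cxcl10, a chemokine that attracts T cells, was at 3.84, 6.23, 1.97, 4.88 and 2.41 CPM in control and at 2.01, 2.68, 3.60, 1.98 and 1.94 CPM in RetSat ko (-0.66 ± 0.308, edgeR adjusted p = 0.413). Cxcl10, Mx2 and Bst2 were the members for which RetSat ko 1 did not exceed the median of its group. Its exons overlap Art3 on the opposite strand.

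Rsad2 encodes viperin, which makes a chain-terminating nucleotide. Rsad2 (chromosome 12, 26492745 to 26506451) was at 33.0, 60.1, 7.87, 34.3 and 14.6 CPM in control and at 33.6, 13.5, 20.0, 10.8 and 7.35 CPM in RetSat ko. Control 2 held 7.63 times as much as control 3, and the log2 fold change of -0.81 ± 0.599 had an edgeR adjusted p of 0.609. Ifi44 was at 8.14, 16.3, 2.64, 11.8 and 3.97 CPM in control and at 5.69, 3.95, 7.68, 4.24 and 4.34 CPM in RetSat ko. Its SD of log2 CPM was 1.09 in control and 0.40 in RetSat ko, and control 3 was below every RetSat ko library (-0.73 ± 0.465, edgeR adjusted p = 0.552). Bst2 encodes tetherin, which holds budding virus at the cell surface, and its means were 17.8 ± 4.97 CPM for control and 17.8 ± 2.00 CPM for RetSat ko (SD, n = 5 each). Its log2 fold change of -0.0008 ± 0.181 leaves room for a modest difference in either direction. The remaining effectors, Mx1, Mx2, Zbp1, Xaf1, Rtp4, Parp14, Herc6, Trim30a and Epsti1, had log2 fold changes from -0.63 (Herc6) to -0.10 (Epsti1), none of them called. Mx1 and Mx2, whose transcripts are 94.8% identical over up to 921 bases, were at 0.707 and 0.597 CPM per kilobase, the lowest levels of the list.

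**Figure D4:**
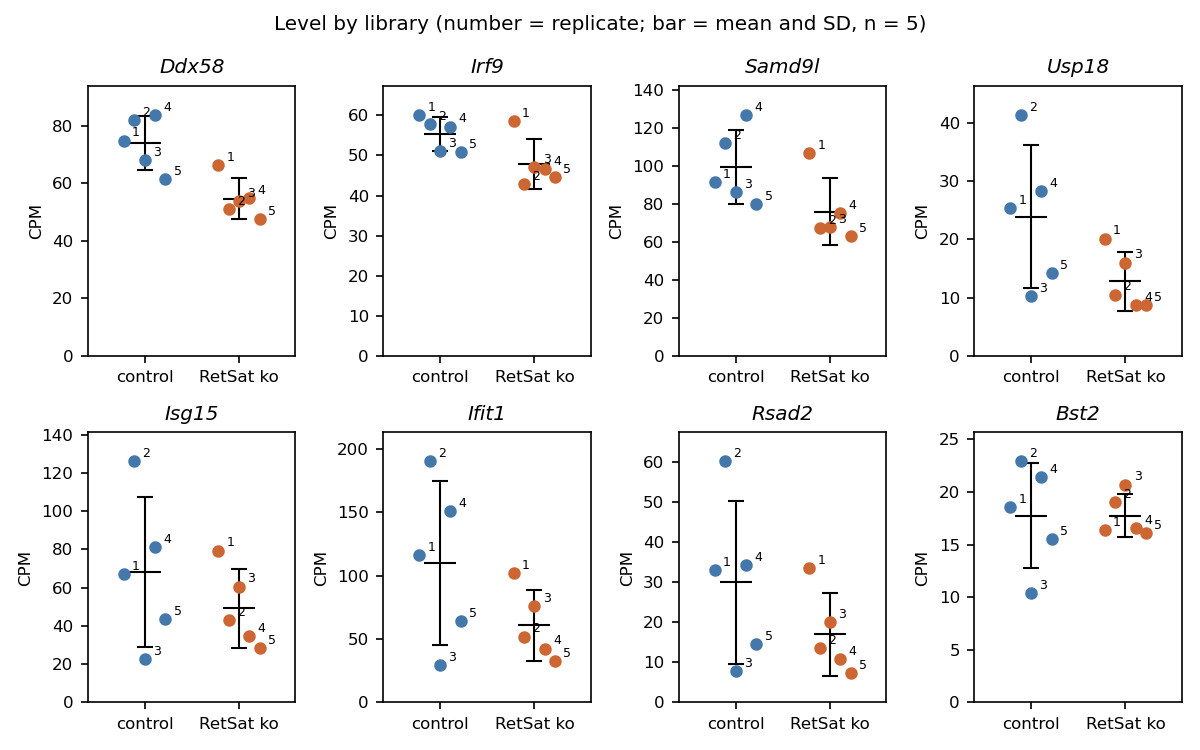
CPM of 8 members (panels) in each library, with control in blue, RetSat ko in orange, the replicate number beside each point, and the mean and SD (n = 5) as bars. In Ddx58, Irf9 and Samd9l only RetSat ko 1 reaches the control range, while in Isg15 and Ifit1 all RetSat ko libraries lie within the control range and control 2 is highest.

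The calls depended on RetSat ko 1. Without that library edgeR called 3 of 35 members (8.57%) lower in RetSat ko. They were Ddx58 with -0.52 ± 0.0927 (edgeR adjusted p = 0.0263), Irf9 with -0.29 ± 0.0646 (0.0353) and Samd9l with -0.54 ± 0.129 (0.0459). Of the 19001 genes tested in that fit, 2.5% were called lower and 4.45% in either direction. The median of the 35 members was -0.60, and 34 of them were negative. None of the widely varying Ifit or Oas genes was called in that fit. The median also shrank to -0.29 without control 2 and to -0.28 without control 4, the control libraries highest in these genes.

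The ligands that induce these genes were hardly detected. Of 20 genes for type I and type III interferons, 13 had 0 counts in all libraries, which allows up to 3 counts over the 10 libraries together, and the others never exceeded 4 counts in a library (16 counts in all control and 14 in all RetSat ko libraries). Ifnb1 had 4 counts in control 2 and 0 elsewhere. The interferon lambda genes Ifnl2 and Ifnl3 had counts only in control 1, control 2 and control 4, at most 3 per library. Ifna2 had 2 counts in control 3 and 2 in RetSat ko 4. Ifnab, Ifne and Ifnk had counts only in RetSat ko 1 or RetSat ko 3, at most 4 per library. Ifng, the gene of interferon gamma, had 15 counts in control 2, 14 in control 4 and 2 to 4 in the other control libraries. In RetSat ko it had 13 counts in RetSat ko 5 and 4 to 6 in the others. Such counts are too low for a comparison between the groups.

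Receptors and signal transducers varied less between libraries, with a median SD of log2 CPM of 0.10 in control and 0.17 in RetSat ko for the receptors and 0.14 and 0.19 for the transducers. All 6 receptor genes had negative log2 fold changes (median -0.19) and 0 of 6 were called by edgeR, with 1 at an unadjusted p under 0.05 and 0 called by DESeq2. Il10rb, shared by the interferon lambda and interleukin-10 receptors, had -0.24 ± 0.102, Ifnlr1, the specific chain of the lambda receptor, -0.22 ± 0.110, and Ifngr2, the most abundant of the 6 per length, -0.21 ± 0.109 (edgeR adjusted p = 0.372, 0.437 and 0.448). Ifnlr1 was at 31.8, 28.9, 35.8, 32.3 and 31.1 CPM in control and at 35.6, 22.8, 28.1, 25.0 and 25.6 CPM in RetSat ko. Control 3, lowest in most interferon-stimulated genes, was thus the highest library for Ifnlr1. Of 11 JAK-STAT transducers and inhibitors, which include the member Usp18, 9 were negative (median -0.19) and 0 were called by edgeR or DESeq2, with 2 at an unadjusted p under 0.05. These were the kinases Tyk2 with -0.19 ± 0.0763 and Jak1 with -0.20 ± 0.0891, and Jak2, the most abundant per length, had -0.32 ± 0.154. Without RetSat ko 1, Ifngr2 and Ifnlr1 (both -0.33) and Jak1 and Jak2 (-0.28 and -0.48) were called lower by edgeR (adjusted p from 0.0287 to 0.0427). They are 2 of the 6 receptors and 2 of the 11 transducers and inhibitors. Of all genes tested in that fit, 2.5% were called lower and 4.45% in either direction.

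Genes that sense nucleic acids and induce interferon were split, with 7 of 17 negative, a median of 0.01 and 0 called by edgeR or DESeq2 (1 at an unadjusted p under 0.05). The smallest p belonged to the Toll-like receptor adaptor Ticam1 with -0.21 ± 0.0783, the kinase Tbk1 with -0.28 ± 0.140 and Ripk1 with -0.19 ± 0.0977, and the RIG-I ubiquitin ligase Trim25 had the highest level per length (-0.26 ± 0.158). Without RetSat ko 1 these 4 of 17 (23.5%) were lower by edgeR (adjusted p from 0.0319 to 0.0444), where 2.5% of all genes tested in that fit were lower and 4.45% were called in either direction. Of 65 other genes responsive to type I and III interferons, 45 were negative (median -0.13) and 0 were called by edgeR or DESeq2, with 12 at an unadjusted p under 0.05, 9 of them lower and 3 higher. These are 18.5% of the 65 in either direction and 13.8% lower, where all tested genes gave 12.2% and 5.45%. The smallest p belonged to genes on both sides. Ifi27l2a was at 4.20 to 6.65 CPM in control and 5.84 to 9.89 CPM in RetSat ko (0.55 ± 0.154), and Ifitm2, of a family that blocks viral entry, at 18.1 to 24.1 and 23.3 to 31.5 CPM (0.35 ± 0.100). Sp100, a nuclear body protein, had -0.42 ± 0.127, and each of the 3 had an edgeR adjusted p of 0.291. Lgals9, the most abundant per length of these 65, had -0.15 ± 0.111. Without RetSat ko 1, Ifi27l2a and Ifitm2 were called higher and Ube2l6, Ifit1bl2, Tdrd7 and Trim30d lower by edgeR (adjusted p from 0.0216 to 0.0353). The latter 4 were named after their values were seen. These calls are 6 of the 65, beside the 4.45% of all genes called in that fit.

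Genes induced mainly by interferon gamma were, on average over the list, high in control 2 and control 4 as well, and in RetSat ko no library led for most of them. Of 27 such genes, 24 were negative (median -0.34) and 0 were called by edgeR or DESeq2 (1 at an unadjusted p under 0.05), also without RetSat ko 1. Igtp, an immunity-related GTPase, was at 48.3, 154, 21.3, 74.8 and 28.2 CPM in control and at 39.1, 34.0, 31.3, 24.5 and 27.0 CPM in RetSat ko (-1.07 ± 0.515, edgeR adjusted p = 0.441). Irgm2 (-0.84 ± 0.384) and Gbp6 (-1.03 ± 0.413) had adjusted p of 0.418 and 0.363, and Irf1, the most abundant per length, had -0.23 ± 0.177. Averaged over the 27 genes, control 2 and control 4 stood at 0.77 and 0.63 on the log2 scale relative to the mean of all libraries, and control 3 at -0.45. RetSat ko 1 was the highest library of its group for 8 of the 27 genes, among them Igtp, Irgm2, Gbp6 and Irf1, and the lowest for 11. Its average was -0.13, within the range of the other RetSat ko libraries (-0.23 to -0.03), whereas the 35 interferon-stimulated genes stood at 0.34 there and at -0.66 to 0.12 in the rest of that group. The median SD of these 27 genes was 0.60 in control and 0.23 in RetSat ko.

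Markers of T cells and intraepithelial lymphocytes were high in the same libraries. The 11 markers summed to 181, 382, 115, 285 and 142 CPM in control 1 to 5 and to 225, 142, 164, 106 and 121 CPM in RetSat ko 1 to 5, ranges of 115 to 382 and 106 to 225 CPM. The order was that of the interferon-stimulated genes in all 5 control libraries, and in RetSat ko the same 2 libraries led. All 11 markers were tested, all were negative (median -0.49) and 0 were called by edgeR; the defining gene Cd3e was at 4.88 to 12.4 CPM in control and 4.16 to 6.74 CPM in RetSat ko. The 6 general leukocyte markers summed to 86.1 to 193 CPM in control and 94.1 to 241 CPM in RetSat ko, highest in RetSat ko 2, which was low in the interferon-stimulated genes. The 8 markers of plasmacytoid dendritic cells, known as producers of type I interferon, summed to 145 to 191 and 150 to 197 CPM, with the defining gene Siglech at no more than 1.00 CPM. Control 2 and control 4 were also the 2 highest control libraries for the leukocyte and plasmacytoid dendritic cell sums. That held too for NK cell, macrophage, conventional dendritic cell and fibroblast markers, but not for B cell or plasma cell markers. Most of the plasmacytoid sum was Irf8 (121 of 191 CPM in control 2 and 98.3 of 180 CPM in control 4). Irf8 is also 1 of the interferon gamma-responsive genes above, and the order of that sum rests largely on it. Among the RetSat ko libraries, RetSat ko 1 was highest for T cell, enterocyte and goblet markers and for none of the other lists named here. Its goblet sum was 13100 CPM, against at most 8560 CPM in RetSat ko 2 to 5. Of all libraries it had the lowest sums of fibroblast (119 CPM), endothelial (30.6 CPM) and macrophage (175 CPM) markers. Enterocyte markers (13 genes) summed to 54200 to 83200 CPM in control and 50700 to 76200 CPM in RetSat ko, and all 13 were negative (median -0.25) with 0 called by edgeR. No marker of these lists was at 0 in all libraries, none is a member of the 35, and the part of any of these cell types in the spread or in the genotype difference was not tested.

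**Figure D5:**
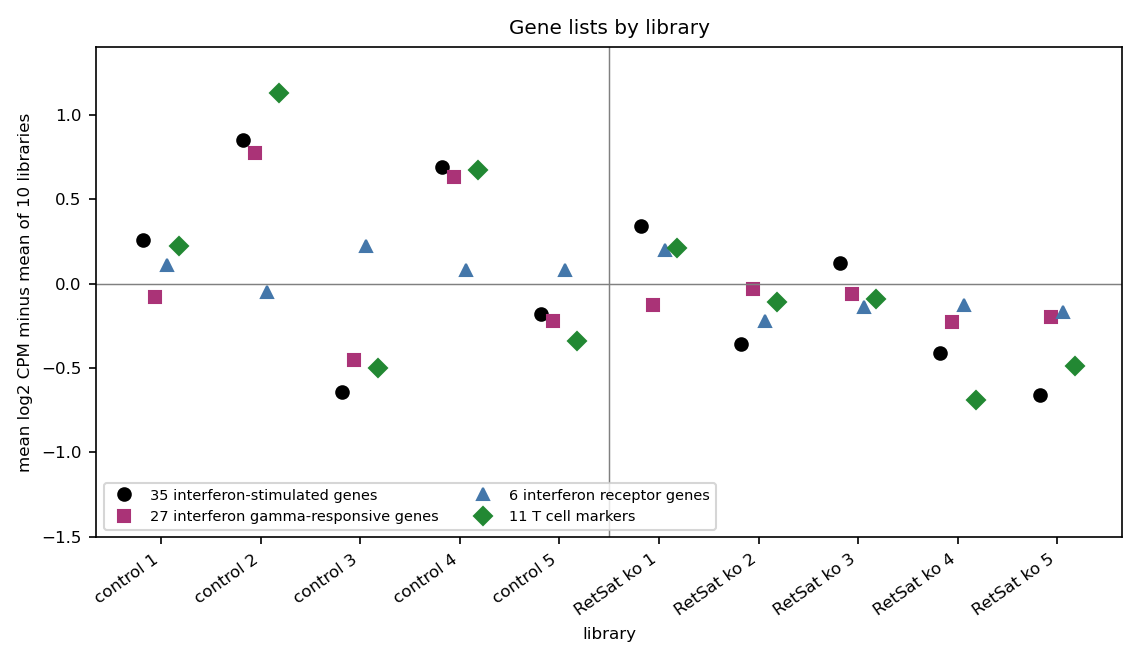
Mean log2 CPM of 4 gene lists in each library, relative to the mean of all 10 libraries, for the 35 interferon-stimulated genes, 27 interferon gamma-responsive genes, 6 interferon receptor genes and 11 T cell markers. Control 2 and control 4 are high and control 3 is low for all but the receptors, and RetSat ko 1 is above 0 for the interferon-stimulated genes (0.34) and the T cell markers (0.21) but not for the interferon gamma-responsive genes (-0.13).

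Members with an ISRE match in the window had a median log2 fold change of -0.52 and a median SD of 0.70 in control and 0.45 in RetSat ko. The 13 members with a window but no match had -0.38, 0.51 and 0.38. Bst2, whose stretch holds 2 overlapping matches, had a log2 fold change of -0.0008, and Ddx58, Irf9 and Samd9l, the members with the smallest p, had no match in their windows. These values describe the list and were not tested.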

How the data were processed

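The deposited files, 1 for each library, hold raw gene counts for 5 control and 5 RetSat ko samples grouped by title and genotype. The tools Trimmomatic and STAR and the build GRCm39 (mm39) are named in the submitters' processing notes. According to the deposited files' own headers, featureCounts 2.0.1 counted exons by gene (GENCODE M28) with no option for strand, read pairs or reads with several alignments, so near-identical and overlapping genes are uncertain and a fragment may count more than 1 time. Whether every library came from its own mouse is not stated in the labels, and p-values cover only the variation among these 10 samples, which may be technical.

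Symbols were matched by identifier for 52081 of 55414 genes (94.0%). Counts were filtered with filterByExpr, normalized with TMM factors and compared with edgeR 4.0.16 in R 4.3.3 (quasi-likelihood F-test, robust, genotype as the only term). P-values were adjusted by Benjamini-Hochberg over the 18654 tested genes, and a call is an adjusted p under 0.05. SE is the fold change divided by the square root of F. SDs use log2 CPM with a prior count of 2. CPM per kilobase uses the length in the files. Transcripts were from GENCODE M21, compared with blastn 2.17.0. The fit was tested on simulated counts. Over 45 pairs of libraries the chi-square of counts per degree of freedom was at least 49.6, so none was a duplicate.

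The members and lists were chosen with earlier results of these data known. Given in full are members past the threshold, the 6 with the smallest p, the 4 with the highest level per length and the 4 with the largest SD, and of each other interferon list the 3 with the smallest p and the most abundant. Alternatives were RLE and upper-quartile factors, 2 other filters (none; 1 CPM in 5 libraries), DESeq2 1.42.0, limma-voom (3.58.1) either plain or weighted by sample, a replicate block, non-robust estimates, summed gene pairs and leaving out each library. Fits without the B cell-rich or acinar-rich libraries were added after seeing the data.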

Additional observations from a re-analysis of the deposited data

Results flagged for a closer look

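In 9 of 106 groups of 5 libraries 1 library stood far from the other 4 by Dixon's criterion. Chance flags about 1 in 20 separate groups. The groups here are genes measured in the same libraries, so that rate is no yardstick for the 9 flags. RetSat ko 1 was the outlying library in 8 of the 9. It was high for the members Irf9 (58.5 CPM, where RetSat ko 2 to 5 had 42.8 to 47.1 CPM) and Samd9l (107 CPM, against 63.2 to 75.1 CPM). It was also high for the receptor genes Il10rb (110 CPM, against 84.0 to 90.3 CPM) and Ifngr2 (389 CPM, against 259 to 283 CPM), and for the kinases Jak1 (158 CPM, against 119 to 129 CPM) and Jak2 (250 CPM, against 143 to 168 CPM). Trim25 was at 236 CPM in RetSat ko 1, against 130 to 155 CPM, and control 4 had 240 CPM, where the rest of the control group had 171 to 190 CPM. Gbp6 was at 1.54 CPM in RetSat ko 1, against 1.03 to 1.16 CPM. Retsat in RetSat ko 1 was at 16.8 CPM, like RetSat ko 2 to 4 (15.4 to 16.4 CPM), while RetSat ko 5 was at 33.4 CPM.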

How the results depend on the processing

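Of the 35 members, 0 were called by edgeR with RLE or upper-quartile factors, with either other filter, with non-robust estimates and with the replicate block, and 0 by limma-voom with or without sample weights. DESeq2 called 1 member and 123 genes in all, and limma-voom with sample weights called 10 genes in all, against 6 in the main test. Leaving out single libraries gave 0 to 3 members called and 5 to 846 genes called, 0 to 2 receptors, 0 to 2 JAK-STAT genes, 0 to 4 sensing genes, 0 to 6 other responsive genes and 0 interferon gamma-responsive genes. The upper values all came without RetSat ko 1, and the cause was not tested. The median of the members lay between -0.60 and -0.28 without single libraries. With the replicate block it was -0.40, with 4 genes called in all. Over all tested genes, equal replicate numbers showed no visible pairing (correlation of deviations from -0.149 to 0.00212, and 0 of 5 libraries closest to their own number). Whether equal numbers mark shared litters or days is not stated in the labels. The sign of Bst2 turned with upper-quartile factors (0.02), the 1 CPM filter (0.0005), limma-voom (0.03, also with weights), the replicate block (0.04) and without the acinar-rich libraries (0.04), and ran from -0.14 to 0.11 without single libraries. Mx1 ran from -0.30 to 0.05 and Zbp1 from -0.46 to 0.09, positive without control 2. Ifit1bl1 was at 0.01 without the B cell-rich libraries. Leaving out the acinar-rich libraries, Retsat had -4.51 with an edgeR adjusted p of 0.0918, above the threshold. The median SD ran from 0.49 to 0.74 in control and from 0.36 to 0.50 in RetSat ko without single libraries.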

Other observations

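Beside the interferon-stimulated genes, the libraries differed in Retsat and in enterocyte markers, with no single order. In control 1 to 5 Retsat was at 518, 387, 576, 340 and 381 CPM and the 13 enterocyte markers summed to 74900, 61100, 83200, 54200 and 68300 CPM. Control 3, lowest for 29 of the 35 members, held the most of both, and control 4, among the 2 highest libraries for most members, held the least of both. Control 1 was above the mean of all libraries for the members (0.26 on the log2 scale) and second-highest for both measures, and control 5 was below it (-0.18) with less Retsat than control 2. The sums weigh abundant markers most, and single markers went both ways. Control 4 was the highest control library for Alpi, Sis and Slc5a1 and the lowest for Apoa4, Apoa1 and Fabp1. Averaged over the 13 markers on the log2 scale, control 3 stood at 0.41, and control 4 and control 2 both at -0.05. In RetSat ko 1 to 5 Retsat was at 16.8, 16.0, 16.4, 15.4 and 33.4 CPM and the enterocyte markers summed to 76200, 50700, 53700, 53500 and 55500 CPM. RetSat ko 1, highest for 27 members, held the most enterocyte marker transcripts, and RetSat ko 5, lowest for 27 members, held the second most by this sum and the most Retsat. By the log2 average of the 13 markers RetSat ko 5 (-0.22) was below RetSat ko 3 (-0.18). With 5 libraries a group, no relation was tested.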
